A study of Brassica napus with 6 samples.

Results

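The gibberellin oxidases are the soluble enzymes that finish and end the life of an active gibberellin, and 8 genes of this family were examined in the wall of the rapeseed (Brassica napus) pod, or silique. Members were the genes whose description in the deposited table names gibberellin together with oxidase or dioxygenase, which gave 8 of 3248 listed genes. Of these, 3 encode a synthesis enzyme and 5 encode an inactivating enzyme. RNA came from silique walls 15 days after flowering. The long silique pool mixed walls of 12 long-silique accessions of an association population, and the short silique pool mixed walls of 11 short-silique accessions of it. Each pool was sequenced as 3 libraries, and the labels do not say whether these came from different plants. The p-values therefore reflect spread between libraries alone, which may be technical. A pool is a mixture, so a difference between pools cannot be assigned to any 1 accession.

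Gibberellins are growth hormones that promote cell expansion and, in Arabidopsis, the growth of the pod after fertilisation. The GA20OX enzymes (gibberellin 20-oxidases) carry out the successive oxidations that lead to the immediate precursors of the active hormone, which GA3OX enzymes then activate. The GA2OX enzymes (gibberellin 2-beta-dioxygenases) hydroxylate active gibberellins or their precursors and so inactivate them. In Arabidopsis, active gibberellin lowers the expression of GA20OX genes and raises that of GA2OX genes, a feedback that keeps the hormone level within bounds.

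Every gene in the table was called by the authors, and these are 4.98% of the 65264 genes that their p-values and FDR imply, so each member differs by selection. In the authors' deposited table, 65.6% of listed genes are lower in the long pool and 34.4% higher. Library totals, estimated from counts and FPKM, were 22892442 to 30259269 reads in the long libraries and 25483275 to 29256555 reads in the short libraries. In libraries of this size a floor of 3 counts corresponds to between 0.0991 and 0.131 CPM, the count scaled to the library total. FPKM are the authors' values, scaled to gene model length and library size, and levels of different genes are compared only on this scale. In a bulk sample, fewer cells of a type and less RNA per cell cannot be told apart. Intervals and floors cover counting error only.

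Each member was given an Arabidopsis locus in the table, and these loci named the same gene as the description in all 8 cases. All 3 synthesis genes are copies of GA20OX3 (AT5G07200). The inactivating genes are 1 copy of GA2OX1 (AT1G78440), 2 copies of GA2OX2 (AT1G30040) and 2 copies of GA2OX6 (AT1G02400). No other gene in the table carries any of these 4 loci. Copies that the authors did not call are not listed, so each symbol below means its listed copies alone. Rapeseed holds an A and a C subgenome, and the named copies are spread over both. Members had low FPKM, with means over the 6 libraries between 0.142 and 1.63, but so had many listed genes, whose median was 1.25 FPKM. BnaC09g48370D (1.63), BnaA10g23640D (1.42) and BnaA09g26500D (1.27) lay above that median and the other members below it.

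Synthesis and inactivation genes were mostly low together in the long silique pool, and GA2OX1 alone among the 8 members ran the other way. Of the 7 members that passed the filter on low counts, 6 were called lower in the long pool and 1 was called higher (edgeR quasi-likelihood test, adjusted over 65264 genes). Of all 2574 genes tested, 66.6% were called, 43.5% lower and 23.1% higher. The fold changes of the 7 tested members had a median of -1.88 on the log2 scale, and the median was again -1.88 with GA2OX1 at its lower bound. Over all tested genes the median was -1.22. Of the 7, 2 passed the filter in both pools, 4 passed through the short pool alone and 1 through the long pool alone, so that the count and median are descriptions of genes that had to differ. The FPKM of the pools did not overlap for any of the 8 members, as for 95% of all listed genes (62% lower and 32.9% higher in the long pool).

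**Figure D1:**
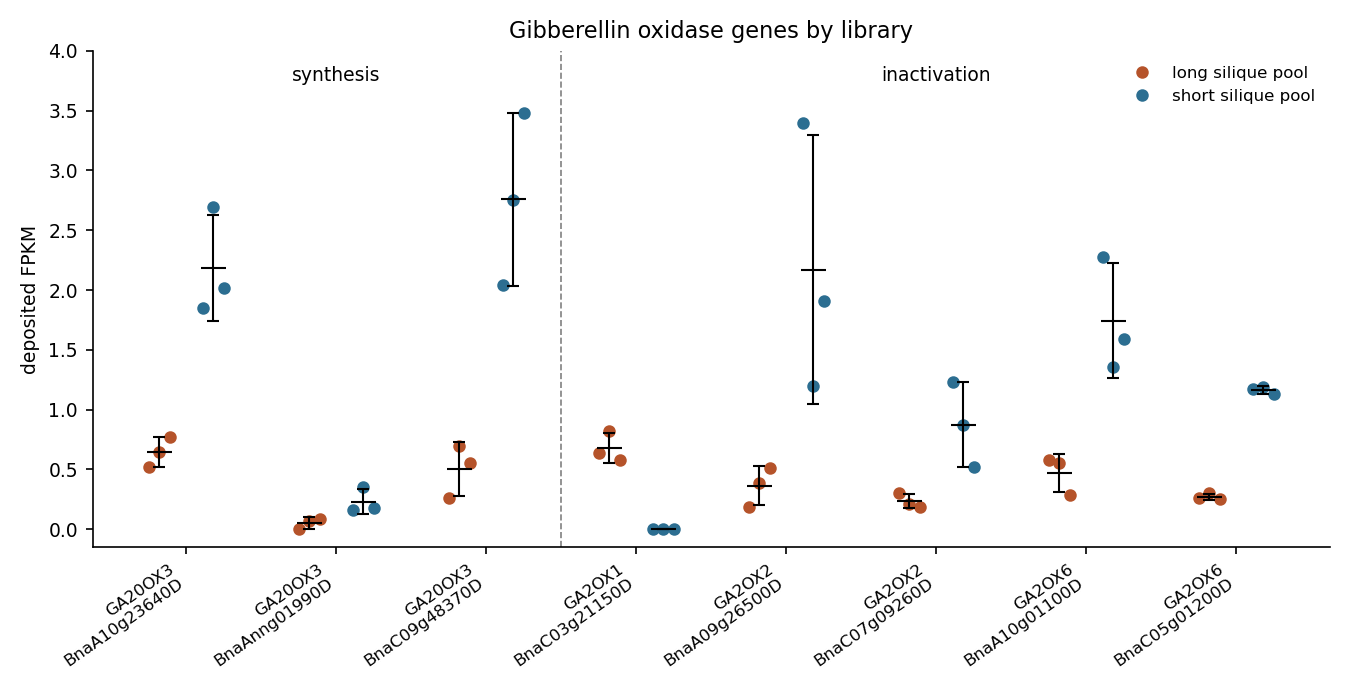
Deposited FPKM (vertical axis) of each gibberellin oxidase gene in the 3 long silique libraries (left, orange) and the 3 short silique libraries (right, blue), in order of replicate number; black bars give the mean and SD. Of the 8 genes, 7 sit lower in the long pool. The listed GA2OX1 copy is at 0.58 to 0.82 FPKM in the long pool and at 0 in the short pool.

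Among the synthesis genes, BnaC09g48370D (C09, 47209453 to 47211211 on the Darmor reference) had the highest FPKM of the family when averaged over all 6 libraries. It stood at 0.26, 0.70 and 0.55 FPKM in the long libraries 1 to 3 and at 2.04, 2.75 and 3.48 FPKM in the short libraries 1 to 3. The highest long library thus remained below the lowest short library. Behind these values were 10, 32 and 19 reads in the long libraries and 79, 122 and 143 reads in the short libraries. The log2 fold change, long over short, was -2.45 ± 0.35 (SE), a 5.45-fold lower level in the long pool (edgeR adjusted p = 0.000513). This copy remained lower, and called, in the fits that left out 1 library (log2 fold changes -2.78 to -2.13).

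The second GA20OX3 copy, BnaA10g23640D (A10, 15576994 to 15578704), was at a like level. It had 0.52, 0.65 and 0.77 FPKM in the long libraries and 1.85, 2.69 and 2.02 FPKM in the short libraries, again without overlap. Its log2 fold change was -1.76 ± 0.31 (SE; edgeR adjusted p = 0.00277). This gene held 53.7% of the summed GA20OX3 FPKM in the long pool, against 42.3% in the short pool, while BnaC09g48370D held 41.8% in the long pool, against 53.3% in the short pool. The FPKM of BnaA10g23640D divided by that of BnaC09g48370D was 2.0, 0.929 and 1.40 in the long libraries and 0.907, 0.978 and 0.580 in the short libraries, so the ratios of the pools overlapped.

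The remaining GA20OX3 copy, BnaAnng01990D, lies on unplaced sequence of the A subgenome (Ann_random, 1067323 to 1069136) and was close to the limit of detection. It had 0, 3 and 3 reads in the long libraries and 6, 15 and 7 reads in the short libraries. The summed counts gave a ratio of 0.222, long over short, with a 95% exact counting interval of 0.0753 to 0.547. It did not pass the filter and was not tested in the fit above. Without the filter its log2 fold change was -2.08 ± 0.81 (SE; edgeR adjusted p = 0.432), and its call in the table is the authors' own. With 3 copies in the table, reads could be shared between near-identical sequences, although only uniquely mapped reads were counted.

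The listed GA2OX1 copy, BnaC03g21150D (C03, 11368926 to 11371043), encodes an inactivating enzyme and was detected in the long pool only at this depth. It had 16, 24 and 13 reads in the long libraries, or 0.64, 0.82 and 0.58 FPKM, and 0 reads in each of the short libraries. A count of 0 over the whole short pool allows a level of up to 0.0367 CPM, against 0.661 ± 0.118 CPM in the long pool (SD, n = 3). The summed counts were 53 over the long libraries and 0 over the short libraries. Each was divided by the summed totals of its pool. With the 0 set at 3, the gene was 18.3-fold higher in the long pool, a lower bound of 4.19 on the log2 scale. This bound covers the 0 alone and takes the 53 long reads without counting error. The edgeR fit, which used the counts themselves, called the gene higher at an adjusted p of 0.000247. The log2 fold change in the authors' deposited table is 2.98, below the bound of 4.19. The gene supplied 33.7% of the summed FPKM of the inactivating members in the long pool. The call held in the fits that left out 1 library.

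The GA2OX2 copies encode an enzyme of the same inactivating step, and both were lower in the long pool. BnaA09g26500D (A09, 19690911 to 19692775) was at 0.19, 0.39 and 0.51 FPKM in the long libraries and at 3.40, 1.20 and 1.91 FPKM in the short libraries. Short replicate 1 stood highest, with 89 reads against 36 and 53 in the other short libraries. The log2 fold change was -2.57 ± 0.46 (SE; edgeR adjusted p = 0.00327).

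BnaC07g09260D (C07, 14481093 to 14483673), the other GA2OX2 copy, was at 0.30, 0.21 and 0.19 FPKM in the long libraries and at 1.23, 0.87 and 0.52 FPKM in the short libraries. Short replicate 1 was again the highest library. Its log2 fold change was -1.88 ± 0.45 (SE; edgeR adjusted p = 0.0269), the weakest call of the family. Leaving out a library ended the call in 5 of 6 cases (edgeR adjusted p up to 0.223) and kept it without short silique replicate 3 (edgeR adjusted p = 0.0199). It also ended with the DESeq2 Wald test (adjusted p = 0.0566) and with limma-voom (adjusted p = 0.0751).

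The GA2OX6 copies, also of the inactivating class, were lower in the long pool as well. BnaC05g01200D (C05, 633306 to 635933) had 0.26, 0.30 and 0.25 FPKM in the long libraries and 1.17, 1.19 and 1.13 FPKM in the short libraries, the narrowest spread of any tested member that was detected in both pools. Its log2 fold change was -2.08 ± 0.38 (SE; edgeR adjusted p = 0.00399). BnaA10g01100D (A10, 569329 to 571918) had 0.58, 0.55 and 0.29 FPKM in the long libraries and 2.28, 1.36 and 1.59 FPKM in the short libraries. The pools did not overlap for either copy. The log2 fold change of BnaA10g01100D was -1.85 ± 0.37 (SE; edgeR adjusted p = 0.00792), and its call ended without short silique replicate 1 (log2 fold change -1.62, edgeR adjusted p = 0.0535).

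The comparison of the classes asked whether synthesis and inactivation genes differed between the pools in the same direction. The GA20OX3 copies summed to 0.78, 1.42 and 1.41 FPKM in the long libraries and to 4.05, 5.79 and 5.68 FPKM in the short libraries. The inactivating genes summed to 1.97, 2.27 and 1.82 FPKM in the long libraries and to 8.08, 4.62 and 5.15 FPKM in the short libraries. Both sums were thus lower in each long library than in any short library. As means, synthesis stood at 1.20 ± 0.367 FPKM in the long pool and 5.17 ± 0.974 FPKM in the short pool (SD, n = 3 each), a log2 ratio of -2.10. Inactivation stood at 2.02 ± 0.229 FPKM in the long pool and 5.95 ± 1.86 FPKM in the short pool (SD, n = 3 each), a log2 ratio of -1.56. Without GA2OX1 the inactivating sum was 1.34 ± 0.105 FPKM in the long pool and 5.95 ± 1.86 FPKM in the short pool (SD, n = 3 each), a log2 ratio of -2.15. These sums carry no test, since they cover only members that were selected for differing.

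The balance of the listed members did not separate the pools. Of the loci searched, 1 of 5 for GA20OX, 3 of 8 for GA2OX and 0 of 4 for GA3OX are listed. The ratio is therefore not that of all synthesis and inactivating enzymes of the tissue. Inactivation divided by synthesis, on summed FPKM, was 2.53, 1.60 and 1.29 in the long libraries and 2.0, 0.798 and 0.907 in the short libraries. Short replicate 1 lay within the range of the long libraries. It had the lowest GA20OX3 sum and the highest GA2OX2 and GA2OX6 sums of the short pool. Without GA2OX1 the ratio was 1.71, 1.02 and 0.879 in the long libraries and as before in the short libraries, and the long values lay wholly inside the range of the short ones.

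**Figure D2:**
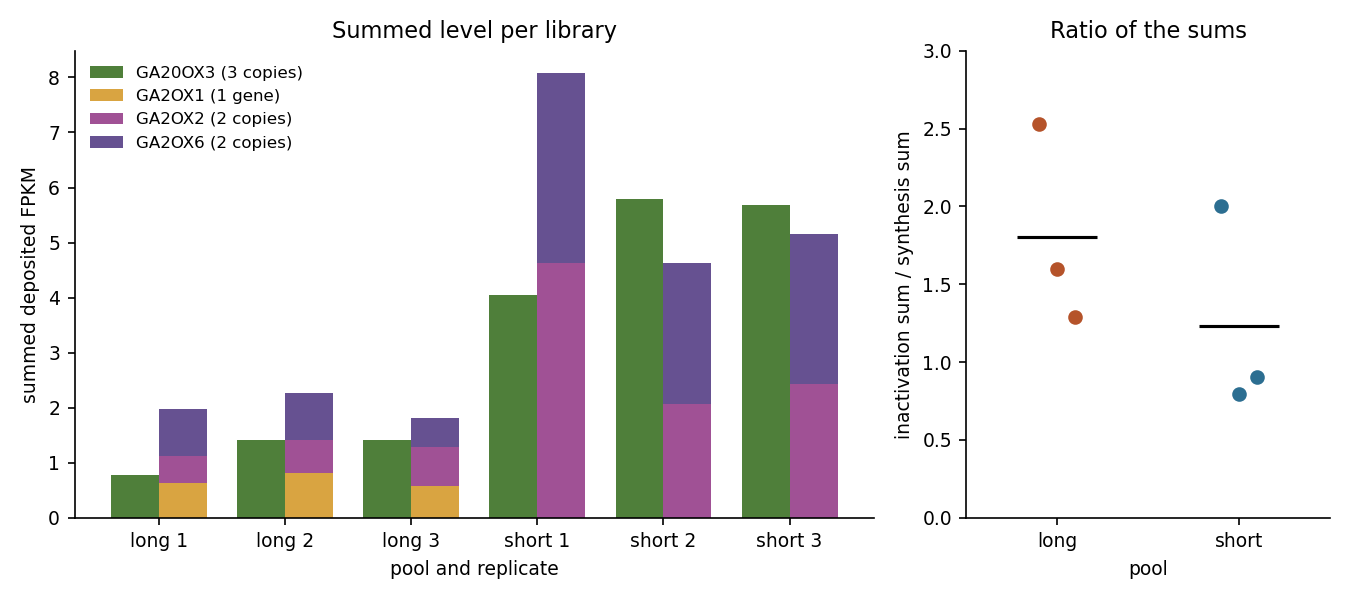
Left, summed deposited FPKM per library of the 3 GA20OX3 copies (green) and of the inactivating genes GA2OX1, GA2OX2 and GA2OX6 (stacked); right, the ratio of the inactivating to the synthesis sum in the long and short pools, each point a library and each line a mean. Both sums are lower in the long libraries, and the listed GA2OX1 copy appears in the long libraries only. The ratios of 1.29 to 2.53 in the long pool and 0.798 to 2.0 in the short pool overlap.

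The direction of each tested member was the same under the 4 library scalings tried, but the calls were not. Each listed gene has a log2 fold change of 1.0 or more in size in the authors' deposited table. Its direction thus had little room to change. Scaling by TMM over the listed genes moved the log2 fold changes of all tested genes up by a median of 0.77, and DESeq2 size factors by 0.94. Under either of these scalings 1 lower member was called, BnaC09g48370D, at a log2 fold change of -1.68 (TMM) and -1.50 (DESeq2 size factors). GA2OX1 was called under both. Of all 2574 tested genes, TMM called 331 lower and 916 higher, and DESeq2 size factors called 273 lower and 915 higher. The number of members called is thus no result about the members. These scalings centre on genes that do not change, and a list chosen for differing need not hold many of them.

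**Figure D3:**
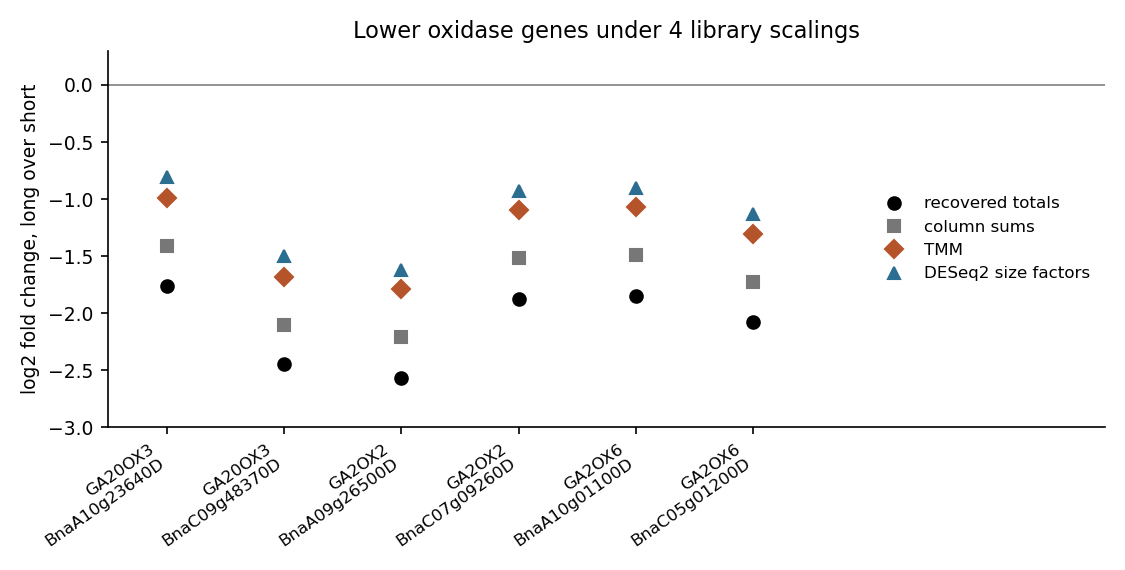
Log2 fold change, long over short, of the 6 tested members that were lower in the long pool (vertical axis) under 4 library scalings. The values run from -2.57 to -1.76 with recovered totals and from -1.62 to -0.81 with DESeq2 size factors, and remain below 0 under each scaling.

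Other genes of the gibberellin pathway were taken from a list of loci and descriptions, and 8 of them were in the table. Of these 8 tested genes, 3 were called higher in the long pool, 2 were called lower and 3 did not pass the test, against 23.1% and 43.5% of all tested genes called in these directions. Their median log2 fold change was -1.11. The table lists no gene of the early synthesis steps, of GA3OX or of the DELLA repressors among the loci searched, and such genes were not analysed here.

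The called genes outside the GASA family were 1 receptor, 1 transporter and 1 transcription factor. GID1B (BnaA09g55590D), which encodes a gibberellin receptor, had 0.57, 0.26 and 0.45 FPKM in the long libraries and 3.1, 1.99 and 2.89 FPKM in the short libraries. It was lower in the long pool, at -2.64 ± 0.34 on the log2 scale (SE; edgeR adjusted p = 0.00019). NPF3.1 (BnaC06g25780D), a membrane transporter whose Arabidopsis counterpart carries gibberellin, was at 1.65, 1.26 and 0.90 FPKM in the long libraries and 3.82, 3.50 and 2.25 FPKM in the short libraries. Its log2 fold change was -1.32 ± 0.29 (SE; edgeR adjusted p = 0.015). That call ended in 4 of the 6 fits without 1 library, where it ranged from -1.55 to -1.13, and with each of the other 3 scalings. CYP714A1 (BnaA06g27350D), a cytochrome P450 that inactivates gibberellin in Arabidopsis by another route, did not pass at -1.45 ± 0.52 on the log2 scale (SE; edgeR adjusted p = 0.331).

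Genes of the GASA family, which encode small cysteine-rich peptides named for their regulation by gibberellin, had 4 listed members, of which 2 were called, both higher in the long pool. GASA4 (BnaC02g05960D) averaged 6.72 ± 0.445 FPKM in the long pool and 3.17 ± 0.363 FPKM in the short pool (SD, n = 3 each), a log2 difference of 1.08 ± 0.25 (SE; edgeR adjusted p = 0.020). GASA12 (BnaA08g07420D) averaged 7.44 ± 0.362 FPKM in the long pool and 3.56 ± 0.66 FPKM in the short pool (SD, n = 3 each), a log2 difference of 1.06 ± 0.26 (SE; edgeR adjusted p = 0.0371). GASA6 (BnaAnng38970D) did not pass, with a log2 fold change of -1.05 ± 0.31 (SE) and an edgeR adjusted p of 0.124. A gene described as GASA1 (BnaA07g38510D) did not pass either, at -1.18 ± 0.43 (SE) and an edgeR adjusted p of 0.38. ATH1 (BnaC01g05260D), a homeodomain transcription factor, was higher in the long pool by 1.24 ± 0.31 on the log2 scale (SE; edgeR adjusted p = 0.0352). Leaving out a library ended the calls of GASA4 and GASA12 in 5 of 6 cases each, with log2 fold changes of 1.02 to 1.18 and of 0.94 to 1.20. For ATH1 the call ended in all 6, at 1.12 to 1.38. With each of the other 3 scalings all 3 genes were called. Their log2 fold changes were then 1.44 to 2.02 for GASA4, 1.42 to 2.02 for GASA12 and 1.6 to 2.19 for ATH1. Those scalings moved all tested genes up by medians of 0.36 to 0.94. With the replicate number as a block, 0 of these 3 higher genes were called by edgeR, and all 3 had an unadjusted p under 0.05 in that fit. Without the block, edgeR and DESeq2 each called 3.

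**Figure D4:**
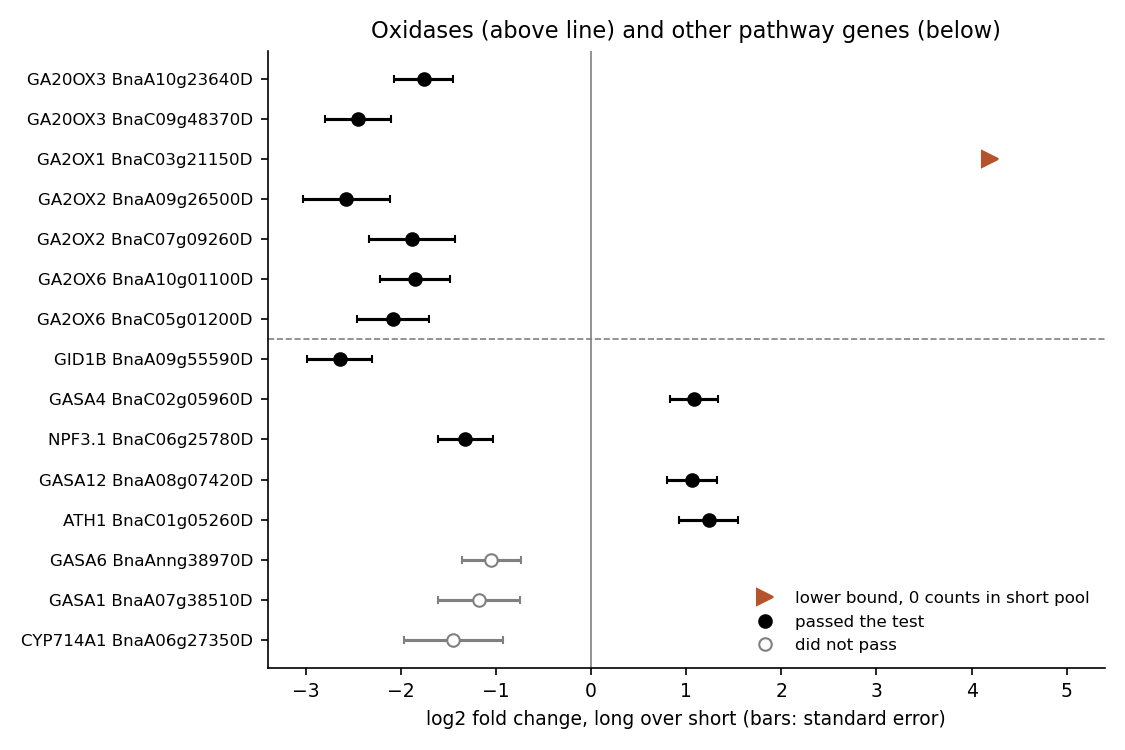
Log2 fold change, long over short, with its standard error for the tested gibberellin oxidases (above the dashed line) and the other listed pathway genes (below it); filled points passed the edgeR test. The triangle marks GA2OX1 at its lower bound of 4.19, the log2 of 18.3; the other oxidases lie between -2.57 and -1.76, and GID1B lies at -2.64.

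The table's own functional classes place 17 genes under gibberellin metabolism, of which 4 are in neither list. They include 2 dioxygenase-like genes in the class of gibberellin synthesis and degradation whose descriptions name other substrates. BnaA03g45910D (AT4G23340), described as an ACC oxidase, had 9, 15 and 11 reads in the long libraries and 3, 4 and 3 reads in the short libraries. BnaC03g69020D (AT3G46500), described as a codeine O-demethylase, had 9, 8 and 8 reads in the long libraries and 1, 1 and 0 reads in the short libraries. Both were higher in the long pool in the authors' deposited table (log2 fold changes 1.26 and 1.7), and neither passed the filter here. The other 2 are copies of the arabinogalactan peptide gene AGP15, BnaA02g34980D on A02 and BnaC02g04020D on C02, which differed in opposite directions (edgeR adjusted p = 0.000326 and 0.0135). They averaged 24.5 ± 1.67 and 37.1 ± 7.69 FPKM in the long pool and 56.8 ± 3.11 and 17.5 ± 1.41 FPKM in the short pool (SD, n = 3 each).

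Position was compared through the nearest listed gene on either side of each member, 44.7 to 766 kb away. Of 16 such neighbours, 12 had the direction of their member in the authors' deposited table, where 65.6% of all listed genes are lower in the long pool. The 12 include both neighbours of BnaAnng01990D, at 91.7 and 766 kb on unplaced sequence. Order and distance there need not be those of a chromosome. The GA2OX6 copies lie in matching stretches of A10 and C05. Both are preceded by a copy of the same mannan endo-1,4-beta-mannosidase gene (AT1G02310), an enzyme that cuts wall mannans, BnaA10g00970D at 51.7 kb and BnaC05g01080D at 48.6 kb. BnaA10g00970D was called at -1.15 ± 0.29 on the log2 scale (SE; edgeR adjusted p = 0.0423). BnaC05g01080D did not pass, at -1.58 ± 0.59 (SE; edgeR adjusted p = 0.434). The following listed genes, BnaA10g01170D (AT1G02470) at 48.0 kb and BnaC05g01320D (AT1G02610) at 56.8 kb, had log2 fold changes of -1.87 ± 0.27 and -1.89 ± 0.35 (SE; edgeR adjusted p = 0.000542 and 0.00384). Around GA20OX3 on C09 the direction was mixed. BnaC09g48270D, without a description and 44.7 kb before it, had 0.46, 0.69 and 0.74 FPKM in the long libraries and 0, 0 and 0.04 FPKM in the short libraries, and it was called higher (edgeR adjusted p = 0.000368). Its log2 fold change in the authors' deposited table is 2.69, and with so few reads in the short pool no fitted fold is given. BnaC09g48550D (AT5G07330), 91.7 kb after it, had one of -1.44 ± 0.35 (SE; edgeR adjusted p = 0.0317).

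Near the other members, BnaA09g26300D (AT1G30260), beside the GA2OX2 copy BnaA09g26500D, was called at -1.71 ± 0.35 on the log2 scale (SE; edgeR adjusted p = 0.00987). BnaAnng01740D, listed next to BnaAnng01990D on the unplaced sequence, was called at -2.18 ± 0.49 (SE, edgeR adjusted p = 0.0192). Beside BnaA10g23640D, BnaA10g22490D and BnaA10g24430D did not pass, at log2 fold changes of -1.05 and -1.44 (edgeR adjusted p = 0.0578 and 0.246). Neither did the neighbours of GA2OX1, BnaC03g20780D at 1.10 and BnaC03g21790D at -1.53 (edgeR adjusted p = 0.106 and 0.104). BnaA09g26740D, BnaAnng02180D and BnaC07g08800D did not pass the filter.

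The GA2OX2 copy BnaC07g09260D was lower in the long pool while both of its listed neighbours were higher in the authors' deposited table. One of them, BnaC07g09400D at 214 kb, encodes a chlorophyll a-b binding protein of the photosystem antenna. It stood at 316, 277 and 291 FPKM in the long libraries and at 127, 187 and 107 FPKM in the short libraries. Its log2 fold change was 1.07 ± 0.18 (SE; edgeR adjusted p = 0.00236).

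The profile of 2 members over the 6 libraries was compared with that of all other listed genes by Pearson's r on log2(CPM + 0.5), as a description, since genes that differ between the pools share their profile by selection. For GA2OX1 the closest were BnaA02g16010D (r = 0.9992), the cytokinin-activating gene LOG5 BnaC01g03350D (r = 0.9986) and BnaA06g35260D (r = 0.9985), and 319 listed genes had an r above 0.95. For BnaC09g48370D they were the ethylene response factor gene ERF104 BnaC07g31350D (r = 0.9971), NUDT21 BnaA07g30920D (r = 0.9928) and BnaA04g08000D (r = 0.9927), with 235 genes above 0.95.

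Seed tissue was considered because pods hold developing seeds at this stage. Of 14 seed marker loci searched, 1 was in the table, the storage protein gene BnaA09g50780D (cruciferin D). It was at 0.02, 0.04 and 0 FPKM in the long libraries and at 2.54, 1.14 and 2.52 FPKM in the short libraries. Behind these values were 1, 2 and 0 reads in the long libraries and 105, 54 and 111 reads in the short libraries. The gene was called lower in the long pool (edgeR adjusted p = 9.13e-06). It was thus low in the same pool as GA20OX3, GA2OX2 and GA2OX6, as were 65.6% of all listed genes, a share that counts direction and not size. The part of seed tissue in the difference of the oxidases was not tested. The seed loci that are not listed were not analysed. Of 6 pod margin and valve loci, 0 were in the table, so the labelled tissue could not be checked against them.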

How the data were processed

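Silique walls of rapeseed were sequenced as 3 libraries of a long and 3 of a short silique pool, grouped by sample titles. Per the series design text, the Darmor genome served as reference and only uniquely mapped, filtered reads counted. The aligner, release and strand setting were not stated there. The submitters' processing notes name DESeq2 and edgeR. Per the file headers, the authors deposited read counts per gene and library, FPKM (counts scaled to gene model length and library size), and their own log2 fold change, p-value and FDR for long over short. The largest FDR listed is 0.0499, and 59362 blank rows were left out.

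Since the column sums of called genes are not the depth, library totals were estimated from counts, FPKM and gene span, using genes with 200 counts and 5 FPKM or more, as the median of values within 0.5% of the 95th percentile. Counts were tested over the whole table with edgeR 4.0.16 (R 4.3.3, robust quasi-likelihood, filterByExpr, these totals, no TMM). Calls needed p up to 0.005 and a Benjamini-Hochberg adjusted p, over 65264 genes, up to 0.05. The filter needs about 0.378 CPM in 3 libraries. As the fit saw only genes chosen for differing, its p-values may be too small. The fit was tried on simulated counts of 2458 genes, most of them unchanged, unlike the genes of this table. Adjusted over 65264 genes, it called 26% of those set to differ by a log2 of 1. It called 100% of those set to differ by more. A gene with a small difference can therefore fail to pass. Alternatives were other scalings, no filter, DESeq2 1.42.0, limma-voom 3.58.1, other thresholds, a replicate block and fits without 1 library.

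All members, all listed genes of the pathway list, nearest listed neighbours, and the 3 closest profiles of GA2OX1 and BnaC09g48370D are named. Members and lists were chosen with earlier results of these data known. The genes of the table's gibberellin classes outside the lists were chosen after their values were seen. Replicates of a pool differed by more than counting noise. Sequences were not used here.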

Additional observations from a re-analysis of the deposited data

How the results depend on the processing

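Each direction of a tested oxidase held under every alternative run. Selection for a log2 fold change of 1.0 or more in size left little room for another outcome. The limits concern calls. With TMM and DESeq2 size factors over the listed genes, all tested genes called higher numbered 916 and 915 and those called lower 331 and 273, against 594 and 1119; column sums gave 679 lower, and an adjusted p of at most 0.01 gave 365 higher. The lower oxidases called fell to 1 under TMM and 1 under DESeq2 size factors. In these 2 scalings the log2 fold changes, with the call ended, were -0.99 and -0.81 for BnaA10g23640D, -1.79 and -1.62 for BnaA09g26500D, -1.10 and -0.93 for BnaC07g09260D, -1.07 and -0.90 for BnaA10g01100D, and -1.31 and -1.13 for BnaC05g01200D. The call of BnaC07g09260D also ended with column sums (-1.52), the DESeq2 Wald test (-1.90), limma-voom (-1.78), the replicate block (-1.87) and an adjusted p of at most 0.01 (-1.88).

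Leaving out 1 library called 4 to 6 lower oxidases and 1 higher one, 364 to 495 genes higher and 736 to 952 lower; 0 to 1 other pathway genes were called higher and 1 to 3 lower, with 3 higher at an unadjusted p under 0.05 in each such edgeR fit. The log2 fold changes ranged from -2.15 to -1.57 for BnaC07g09260D and from -2.01 to -1.62 for BnaA10g01100D. An adjusted p of at most 0.01 called 0 other pathway genes higher and 1 lower, the replicate block 0 higher, and TMM, DESeq2 size factors and column sums 1 lower each. DESeq2 and limma-voom called 3 higher and 2 lower. The labels give no link between same-numbered libraries of the pools beyond the number. Their deviations correlated at 0.0367, 0.0106 and 0.00297. Long replicates 1 and 3 were closest to the short library of the same number, and long replicate 2 was closest to short replicate 3 (0.0265). Correlations this weak cannot settle whether the libraries were paired. The replicate block called 1228 of all genes, against 1713.

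The log2 ratio of the synthesis sum was -2.25 to -1.87 without 1 library. That of the inactivating sum was -1.19 without BnaA09g26500D and -1.71 to -1.27 without 1 library. A different measure was the median over members of each member's own log2 difference. For synthesis it was -1.61 on log2(FPKM + 0.1) and -0.95 on log2(FPKM + 1). For inactivation it was -0.77 on log2(FPKM + 1). A larger pseudocount shrinks differences of genes near 1 FPKM by construction; the cause of the other changes was not tested. At these depths no member had more than 32 reads in a long library, which limits the precision of each value.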
